A study of Mus musculus with 9 samples.

Results

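Signal of 10 genes of squamous epithelium, the layered lining that meets the colon at the anal margin, was followed in mouse colonic mucosa. They are Ly6d, Krt5, Krt14, Krt13, Krt4, Krt6a, Sprr1a, Sprr2a, Trp63 and Dsg3. Every array probe whose RefSeq accession maps to one of these symbols was taken, whatever its signal. This gave 13 probes of 10 genes, among 18353 genes with a probe on the array. Each of the 13 probes has 1 spot per array, and 9 of the 10 genes passed the filter on dim probes. Trp63 did not.

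RNA of mucosa labelled normal, from the colon of outbred ICR mice, was hybridised with 1 dye (Cy3) to 9 Agilent arrays. The labels do not say which stretch of the colon was taken or how near it lay to the anus. All 3 groups received the carcinogen 1,2-dimethylhydrazine (DMH) under the skin at 20 mg/kg, weekly over 20 weeks. Mice of the DMH group (3 arrays) drank plain water. Both other groups had 1.5% butyrate in the drinking water, a short-chain fatty acid that colonocytes burn and that inhibits histone deacetylases. One of them comes from mice without tumors (3 arrays) and the other from mice with tumors (3 arrays), although the RNA of both is from normal mucosa. No group without DMH was analysed here, and for the DMH group the titles are silent on tumors, while another field calls it a control. Tumor status was read from the titles and source names. A characteristics field states the reverse for all 6 butyrate samples, and were it right, the names of both butyrate groups would change places throughout. Separate animals are nowhere stated, so the p-values measure the spread between samples, which may be technical.

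Values are log2 signal relative to the 75th percentile of each array, so 0 is a fairly bright spot and each unit is a doubling. That percentile ran from 188.0 intensity units on array 1 with tumors to 879.8 on array 3 with tumors. Between 57.8% and 72.5% of spots were well above background, and none was saturated. The 3 arrays without tumors share slide 1 with array 1 with tumors. Arrays 2 and 3 with tumors are on slide 2, DMH array 1 is on slide 3 and DMH arrays 2 and 3 are on slide 4. DMH arrays were also scanned on another day, so in any comparison with DMH the treatment, the slide and the day of scanning cannot be told apart. Array 1 with tumors stood apart from its group. The SD of its gene-by-gene difference from arrays 2 and 3 with tumors was 1.006 and 0.965 log2 units, against 0.505 between those arrays. Spread was unequal between groups, with a median SD of 0.116 log2 units for DMH, 0.267 without tumors and 0.383 with tumors. Fits of 3 groups nevertheless share 1 estimate of the spread.

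Stratified squamous epithelium renews from a basal layer that sits on the basement membrane and carries keratins 5 and 14 under the control of the transcription factor p63, the product of Trp63. Cells that leave this layer switch keratins, to keratins 4 and 13 in moist linings such as oesophagus and anal canal, and build a tough envelope of cross-linked proteins that include the small proline-rich proteins of the Sprr family. Desmosomes, with desmogleins such as Dsg3, hold the layers together. The colon itself is lined by a single layer of columnar cells with other keratins, and meets squamous epithelium at the anorectal junction. Some of the listed genes are not restricted to squamous cells: Sprr2a is also made by intestinal epithelium, where gut bacteria induce it, and Ly6d marks early B lineage cells as well as keratinocytes. In bulk RNA, fewer cells of a type and less RNA per cell cannot be told apart.

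RefSeq promoter windows (build GRCm38.p6) were found for 5 of the 10 genes, in 8 windows. They are shown for 4 genes that behaved differently on the arrays: Krt13 and Sprr2a, which were lower than in DMH mice in the butyrate group without tumors, and Krt5 and Sprr1a, which did not pass the test in any comparison. Each is the 250 bases before the annotated start, 5′ to 3′ on the gene's strand, with matches to the AP-1 motif TGANTCA and the TATA box motif TATAAA in capitals.
Krt5 (chr15:101712906-101713155, minus strand): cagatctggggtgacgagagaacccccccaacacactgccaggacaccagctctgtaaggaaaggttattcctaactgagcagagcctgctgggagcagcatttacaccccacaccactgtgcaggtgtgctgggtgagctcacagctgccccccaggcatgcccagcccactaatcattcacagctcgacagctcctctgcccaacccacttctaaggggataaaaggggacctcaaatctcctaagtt
Krt13 (chr11:100121567-100121816, minus strand): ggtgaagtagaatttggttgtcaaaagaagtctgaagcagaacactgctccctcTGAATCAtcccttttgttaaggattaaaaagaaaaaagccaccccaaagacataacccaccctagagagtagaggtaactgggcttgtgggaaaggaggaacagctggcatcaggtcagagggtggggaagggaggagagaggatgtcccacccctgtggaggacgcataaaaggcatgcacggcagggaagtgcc
Sprr1a (chr3:92485882-92486131, minus strand): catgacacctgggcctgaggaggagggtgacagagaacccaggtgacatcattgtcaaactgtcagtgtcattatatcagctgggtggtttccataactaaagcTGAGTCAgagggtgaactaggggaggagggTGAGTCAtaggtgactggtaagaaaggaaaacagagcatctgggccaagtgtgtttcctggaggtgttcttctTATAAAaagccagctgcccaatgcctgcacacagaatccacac
Sprr2a1 (chr3:92215585-92215834, plus strand): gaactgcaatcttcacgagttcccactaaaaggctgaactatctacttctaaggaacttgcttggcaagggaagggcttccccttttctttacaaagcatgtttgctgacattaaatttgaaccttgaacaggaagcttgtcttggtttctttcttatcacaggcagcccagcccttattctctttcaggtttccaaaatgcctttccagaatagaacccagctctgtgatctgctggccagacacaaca

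Motifs were searched on both strands. Sprr1a holds 2 AP-1 matches, TGAGTCA, that begin 146 and 116 bases before the start, and a TATAAA that begins 43 bases before it. The Krt13 window holds 1 AP-1 match, TGAATCA, 196 bases before the start, and its second annotated start has 2 matches, TGACTCA. Of all 32851 promoter windows of this length, 6.75% hold TGANTCA and 12.4% hold TATAAA. Neither set of letters occurs in the windows of Krt5 or Sprr2a1. A p63-type motif was searched as CATG, 6 other bases and CATG again, which 0.49% of all windows and none of the 8 hold. Its loose form, with CNNG in place of both CATG, occurs once in the Krt5 window and in 63.5% of all windows. The KLF-type letters GGGNGGGG occur in 30.8% of all windows and once in that of Krt13. The array's accession for Sprr2a belongs to Sprr2a1. The Sprr2a1 and Sprr2a2 windows are identical over all 250 bases, and Sprr2a3 shares a run of 222 bases with them. Which copy the probes read was not tested, as no probe sequences were compared.

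**Figure D1:**
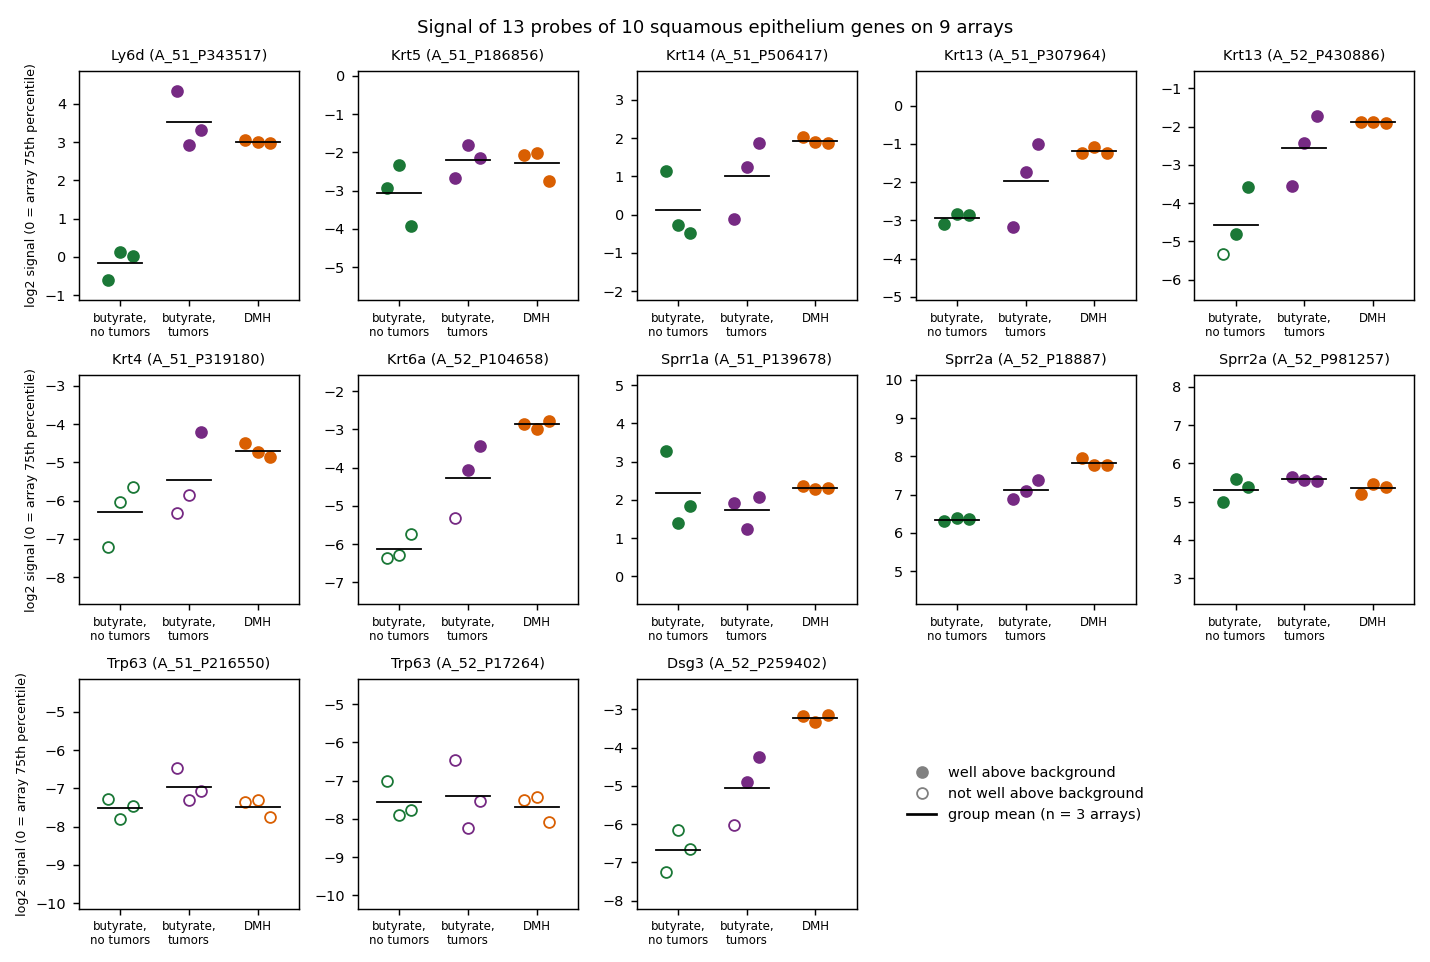
Log2 signal of each of the 13 probes relative to the array's 75th percentile (vertical axis, each panel 6 units high) on the 9 arrays, by group. Points are arrays, filled where the spot was well above background and open where it was not, and lines are means of 3 arrays. Ly6d is low on all 3 arrays without tumors, Dsg3 and Krt6a step up across the 3 groups, and both Trp63 probes are open on all 9 arrays.

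Basal layer genes came first in the check of the label. Both Trp63 probes were well above background on none of the 9 arrays, and their signal lay between -7.81 and -6.47 for one probe and between -8.24 and -6.45 for the other. No difference is given for Trp63. Krt5 was above background on all 9 arrays, at -2.93, -2.32 and -3.92 in arrays 1, 2 and 3 without tumors, -2.68, -1.81 and -2.14 in arrays 1, 2 and 3 with tumors and -2.07, -2.03 and -2.74 in the DMH arrays. The 3 groups overlapped. Krt14, the partner of Krt5 in the basal filament, read 1.14, -0.26 and -0.49 without tumors, -0.11, 1.25 and 1.87 with tumors and 2.02, 1.90 and 1.87 in DMH mice. All 3 DMH arrays lay above the butyrate arrays, though array 3 with tumors was level with DMH array 3 after rounding. Array 1 without tumors was high for its group.

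The keratins of the upper layers were dim in the mice without tumors. The brighter Krt13 probe (A_51_P307964) gave -3.09, -2.82 and -2.87 without tumors, -3.17, -1.73 and -1.0 with tumors and -1.23, -1.09 and -1.24 in DMH mice. Its other probe (A_52_P430886) gave -5.34, -4.80 and -3.59, then -3.54, -2.42 and -1.73, then -1.88, -1.87 and -1.90, and the probes correlated at r = 0.904 over the 9 arrays. On both probes every array without tumors lay below every DMH array, and array 3 with tumors lay above them all. Krt4, the partner of Krt13, was well above background on the 3 DMH arrays (-4.49, -4.73 and -4.86) and on array 3 with tumors (-4.21), and on no other array.

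Krt6a, a keratin that keratinocytes switch on in wounds and under stress, was well above background in DMH mice (-2.85, -2.99 and -2.78) and on arrays 2 and 3 with tumors (-4.07 and -3.43). It was not well above background on array 1 with tumors (-5.33) or on any array without tumors (-6.37, -6.29 and -5.73). Dsg3, the desmoglein of deep squamous layers, followed the same order. Its DMH arrays read -3.17, -3.34 and -3.15, arrays 2 and 3 with tumors -4.90 and -4.25, array 1 with tumors -6.02, and the arrays without tumors -7.26, -6.15 and -6.65. The last 4 of these were not well above background. For both genes no 2 of the 3 groups overlapped, although the gap between array 1 with tumors and the arrays without tumors lay among spots that were not well above background. Krt4, Krt6a and Dsg3 passed the filter, which asks for 3 arrays above background, through the DMH arrays, so some difference was built into their being tested. They were dim on the DMH arrays too, Krt4 most of all at -4.86 to -4.49.

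The envelope genes did not move together. Sprr1a read 3.29, 1.40 and 1.83 without tumors, 1.91, 1.25 and 2.07 with tumors and 2.36, 2.28 and 2.31 in DMH mice. Array 1 without tumors was the highest of all 9, and the groups overlapped apart from those with tumors and DMH. The tested Sprr2a probe (A_52_P18887) read 6.30, 6.39 and 6.35 without tumors, 6.88, 7.08 and 7.37 with tumors and 7.96, 7.76 and 7.76 in DMH mice. These 3 groups were separate, with the narrowest spread among the members on the arrays without tumors (SD 0.05, n = 3). The other Sprr2a probe (A_52_P981257) did not show that order. It read 4.98, 5.59 and 5.37 without tumors, 5.65, 5.56 and 5.55 with tumors and 5.20, 5.46 and 5.39 in DMH mice, and correlated with the first at r = 0.056 over the 9 arrays. Both carry a Sprr2a accession, so the result for Sprr2a rests on 1 of its 2 probes.

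Ly6d, a small surface protein tethered by a lipid anchor, had a pattern of its own. It read -0.60, 0.12 and 0.02 without tumors, 4.34, 2.92 and 3.31 with tumors and 3.05, 3.00 and 2.99 in DMH mice. All 3 arrays without tumors were low, and those with tumors lay on both sides of DMH. Array 1 with tumors, which was low for Krt14, Krt13, Krt6a and Dsg3, was the highest of the 9 for Ly6d.

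Without tumors, butyrate mice had less signal of most of these genes than DMH mice. In this comparison of 3 arrays with 3, 6 of the 9 measured genes fell by limma's moderated test at an adjusted p under 0.05, and none rose. Over all 21964 features tested, 13.8% were called lower. As the members were chosen with earlier results of these data known, shares above that of all features, here and below, are not independent support. Ly6d fell by 3.16 ± 0.35 on the log2 scale (SE, 8.97-fold, adjusted p = 0.00152). Sprr2a fell by 1.48 ± 0.17 (adjusted p = 0.00153), though its other probe differed by only -0.03 (adjusted p = 0.905). Krt13 fell by 1.74 ± 0.46 (adjusted p = 0.0244), and by 2.69 ± 0.52 on its other probe (adjusted p = 0.00913), which was above background on 2 of 3 arrays without tumors. Krt14 fell by 1.80 ± 0.55 (adjusted p = 0.0386).

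Dsg3 and Krt6a were also called, with no array without tumors above background. With each of those arrays set at its own dimmest spot still counted as above background, Dsg3 was at least 4.54-fold lower (measured means -6.69 and -3.22, adjusted p = 0.0021) and Krt6a at least 5.77-fold lower (-6.13 and -2.87, adjusted p = 0.00242). Krt4 was at least 1.63-fold lower by the same measure, and its adjusted p of 0.0614 missed the threshold. These bounds belong to the main processing and are not minima over the alternatives. Over those, the fitted difference ran from -4.55 to -0.63 for Dsg3, -4.34 to -0.94 for Krt6a and -2.69 to -0.15 for Krt4. Krt5 differed by -0.78 ± 0.42 (adjusted p = 0.183) and Sprr1a by -0.14 ± 0.45 (adjusted p = 0.826). For 7 of the 9 genes no array without tumors reached a DMH array, against 27.2% of all features. Among the 7, Krt4, Krt6a and Dsg3 were tested through the DMH arrays, which built in some of this separation. The median difference of the 9 genes was -1.74, with dim groups at their bound too, against 0.08 for all features. Of the 6 genes above background on every array (Ly6d, Krt5, Krt14, Krt13, Sprr1a and Sprr2a), 4 fell.

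Those calls varied in how firmly they held. Ly6d, Krt6a, Sprr2a and Dsg3 were called under every alternative in which they were tested, including when any 1 array was left out. Krt13 and Krt14 lost their calls when array 2 or 3 of the group without tumors or any 1 DMH array was left out. Krt13 also lost its call without array 1 of that group, and Krt14 without array 2 with tumors. Over all arrays left out in turn, 4 to 7 genes were called. With no scaling between arrays the same 6 genes were called, but the median of all features then moved to -1.0, and 99.7% of all calls were lower instead of 45.4%.

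**Figure D2:**
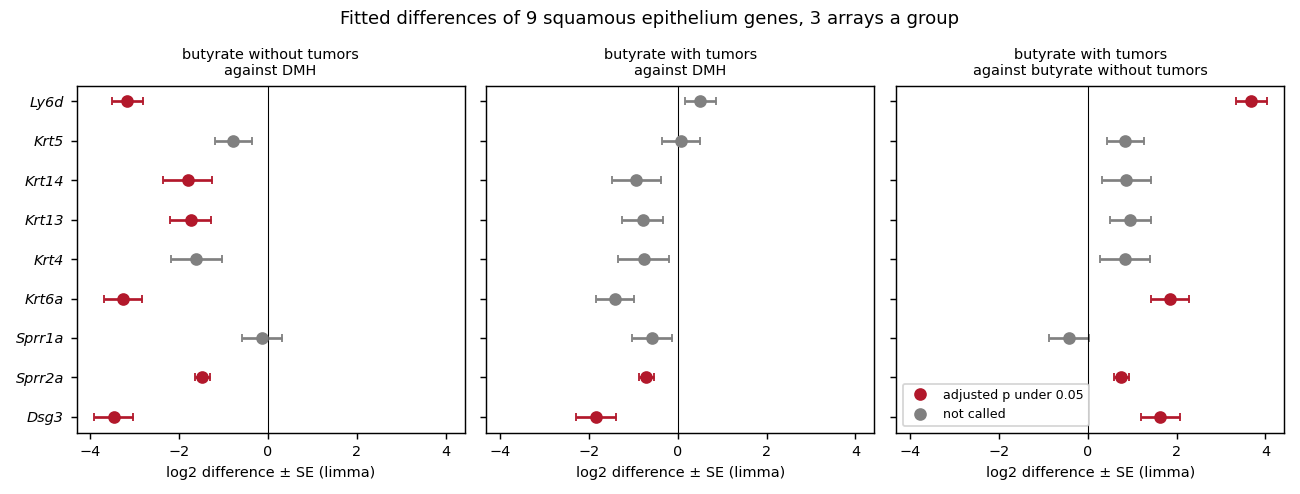
Fitted log2 difference of the 9 measured genes (horizontal axis, bars ± SE) in 3 comparisons of 3 arrays with 3, red where the adjusted p was under 0.05. In the left panel 6 genes are red and below 0. In the middle panel 2 are red, and in the right panel 4 are red and above 0. Krt4, Krt6a and Dsg3 were not well above background on any array without tumors, so their fitted values in the left and right panels are not bounds.

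With tumors, the butyrate mice lay nearer to DMH. Sprr2a fell by 0.71 ± 0.17 (adjusted p = 0.0475). Dsg3 was called on a fitted difference of -1.84 ± 0.44 (adjusted p = 0.0496), a size that rests in part on array 1 with tumors, which was not well above background. These were the 2 called genes of the 9, against 2.26% of all features called lower, and among the 6 genes above background on every array 1 was called. The other Sprr2a probe was higher in each array with tumors than in any DMH array, by 0.23 on average (adjusted p = 0.419). Both calls lay close to the threshold. Leaving out any 1 array left 0 called genes, or 1 (Dsg3) without array 1 without tumors, which enters through the shared spread. Where none was called, 3 to 6 genes had an unadjusted limma p under 0.05. Krt6a differed by -1.41 ± 0.43 (adjusted p = 0.0805, 2 of 3 arrays with tumors above background), Krt14 by -0.93 ± 0.55 (adjusted p = 0.281) and Krt13 by -0.79 ± 0.46 (adjusted p = 0.28). Krt4 differed by -0.77 with 1 of 3 arrays with tumors above background, Sprr1a by -0.57 and Krt5 by 0.07, with adjusted p-values of 0.385, 0.412 and 0.925. Ly6d differed by 0.51 ± 0.35 (adjusted p = 0.355), and by -0.10 with no scaling between arrays. For 5 genes (Dsg3, Krt14, Krt6a, Sprr1a and Sprr2a) no array with tumors reached a DMH array, against 19.5% of all features. Krt14 counts only narrowly, as array 3 with tumors and DMH array 3 were level after rounding. Dsg3 and Krt6a were tested through the DMH arrays.

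Taking the 6 butyrate arrays as 1 group, which is the comparison the study names, 3 of the 9 genes fell against DMH, and 3.35% of all features were called lower. Sprr2a fell by 1.1 ± 0.27 (adjusted p = 0.0387), and its other probe differed by 0.10 (adjusted p = 0.741). Dsg3 and Krt6a were called on fitted differences of -2.65 ± 0.59 (adjusted p = 0.0325) and -2.33 ± 0.63 (adjusted p = 0.0494), with 2 of 6 butyrate arrays above background, so the sizes rest on dim spots. Among the 6 genes above background on every array, 1 was called (Sprr2a). Ly6d, which fell against DMH without tumors, differed by -1.33 ± 1.07 here (adjusted p = 0.423), or ± 0.31 with a call (adjusted p = 0.021) when the mean of both butyrate groups was taken in the fit of 3 groups. Its 6 butyrate arrays ran from -0.60 to 4.34. Krt14 (-1.37), Krt13 (-1.26) and Krt4 (-1.19, with 1 of 6 butyrate arrays above background) had adjusted p-values of 0.11, 0.106 and 0.157. Sprr1a (-0.36) and Krt5 (-0.35) had adjusted p-values of 0.559 and 0.594. For Dsg3, Krt14, Krt6a and Sprr2a all 6 butyrate arrays lay below all 3 DMH arrays, against 11.9% of all features. Krt14 counts only narrowly, as array 3 with tumors and DMH array 3 both read 1.87 after rounding. Dsg3 and Krt6a were tested through the DMH arrays. No gene was called when array 2 or 3 of the group without tumors or any 1 DMH array was left out, with 3 to 5 genes at an unadjusted limma p under 0.05. Without array 1 of that group 1 was called (Dsg3), and without array 3 with tumors 6 were (Krt13, Krt14 and Krt4 in addition). The comparisons with DMH share their DMH arrays.

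**Figure D3:**
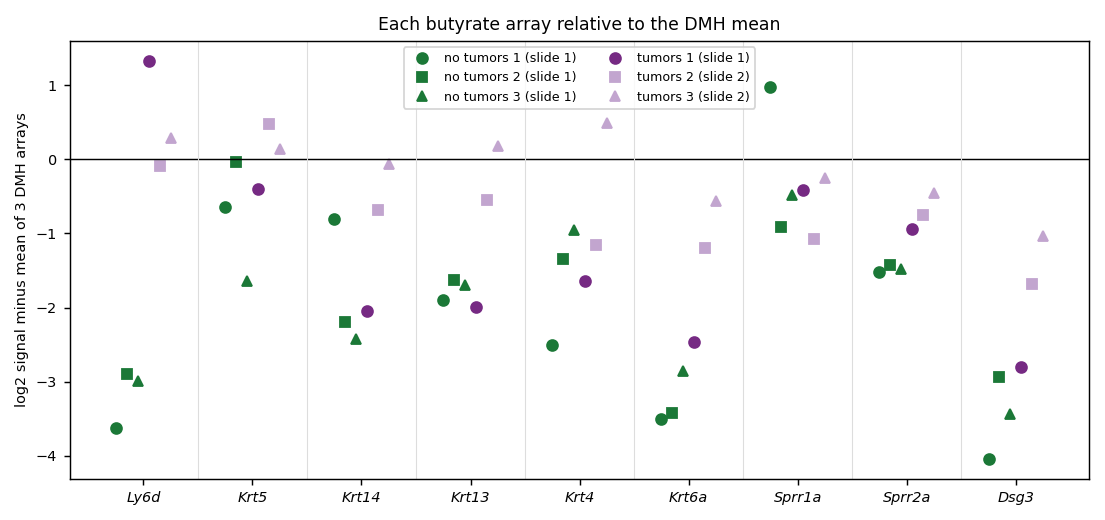
Log2 signal of each butyrate array minus the mean of the 3 DMH arrays (vertical axis) for the 9 measured genes, with marker colours for group and slide. Dark purple circles, array 1 with tumors on slide 1, lie at or near the green arrays of the same slide for Krt14 and Krt13 but above all other arrays for Ly6d. The pale arrays of slide 2 lie nearer to 0 for Krt13, Krt6a and Dsg3.

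Between the butyrate groups, Ly6d was 12.8-fold higher with tumors, a log2 difference of 3.68 ± 0.35 (adjusted p = 0.00917). Sprr2a rose by 0.76 ± 0.17 (adjusted p = 0.0273). Krt6a and Dsg3 were called higher (adjusted p = 0.0321 and 0.0453), on fitted differences of 1.85 ± 0.43 and 1.63 ± 0.44. They were above background on 2 of 3 arrays with tumors and on none without, and since array 1 with tumors was dim too, no fold is given for them. Among the 6 genes above background on every array, 2 were called (Ly6d and Sprr2a). These were 4 of the 9 genes, and the same 4 whose arrays did not overlap, against 6.99% of all features called higher and 16.8% without overlap. Sprr2a's other probe differed by 0.27 (adjusted p = 0.334). Krt13 differed by 0.96 ± 0.46 on the tested probe (adjusted p = 0.178) and by 2.02 ± 0.52 on the other (adjusted p = 0.0423). Krt14 and Krt5 differed by 0.87 and 0.85, with adjusted p-values of 0.285 and 0.184. Krt4, above background on 1 of the 6 arrays, had an adjusted p of 0.315, and Sprr1a differed by -0.43 (adjusted p = 0.514), a value that turned to 0.04 with no scaling. The median was 0.87, against 0.01 for all features.

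Slide moved with this comparison, since 2 of the 3 tumor arrays lie on slide 2 and all arrays without tumors on slide 1. With slide as a fixed block, an alternative chosen after seeing the data that rests on 1 array, array 1 with tumors, against its slide mates, Ly6d differed by 4.49 ± 0.30 (adjusted p = 0.00328). Krt6a then differed by 0.80 (adjusted p = 0.151), Sprr2a by 0.53 (adjusted p = 0.0953) and Dsg3 by 0.67 (adjusted p = 0.332), so their calls were lost. Krt14 (-0.24), Krt13 (-0.25) and Krt4 (-0.03) changed sign. Ly6d also stayed called when any 1 array was left out. Ly6d alone was called (1 gene) when any 1 array of the group without tumors, array 3 with tumors or DMH array 2 or 3 was left out. Leaving out array 2 with tumors or DMH array 1 gave 2 genes, Ly6d and Sprr2a, and leaving out array 1 with tumors gave 6. Taken array by array, array 1 with tumors had 7 of the 9 genes below all DMH arrays and a median of -1.64 from the DMH mean, near the -1.90 to -1.63 of its slide mates. Arrays 2 and 3 with tumors had medians of -0.75 and -0.07.

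Across the 9 arrays the members fell into an order that correlation coefficients describe, with arrays of the same group, slide and scan day as the points. Krt6a, Dsg3 and the tested Sprr2a probe ran closest, at r = 0.975 for Krt6a with Dsg3, 0.976 for Krt6a with Sprr2a and 0.979 for Sprr2a with Dsg3. Krt13 joined them at 0.946 with Krt6a. Krt5 and Krt14, which pair in one filament, correlated at 0.597, and Krt4 and Krt13, the other pair, at 0.891. Ly6d correlated at 0.446 (Krt14) to 0.746 (Sprr2a) with the members other than Sprr1a, and Sprr1a at -0.219 to 0.411 with the 8 other genes.

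Outside the 10 genes, those most like each member over the 9 arrays were picked by Pearson's r among 15346 named genes. They were Ccdc88b (r = 0.994), Lilra6 and Uvrag for Ly6d, and Wfdc17 (0.996), Samd5 and Gnl2 for Krt6a. For Dsg3 they were Nthl1 (0.995), Ocstamp and Npy, and for Sprr2a Jmjd6 (0.993), Ncmap and Rplp1. Krt13 ran closest to Cldn6 (0.990), Wdr31 and Ext1, Krt14 to Plat (0.987), Clba1 and Cdk5r2, and Krt4 to Prr12 (0.986), Lsm2 and Evx1. Sprr1a ran closest to Nr2e3 (0.983), Rbms3 and Decr2. Krt5 had the loosest neighbours, Ubxn10 (0.909), Olfr1101 and Tmem198b. None of these 27 genes belongs to a gene list used here, and the coefficients describe 9 points searched over all named genes.

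Other genes of squamous epithelium were called in both directions, apart from the further keratins, which were called only lower. Counted in either direction, 3 of 4 lists had shares near that of all features. In butyrate mice without tumors against DMH 30.5% of all features were called in either direction and 13.8% lower. The lower calls of the 4 lists were 2 of 7, 3 of 14, 2 of 10 and 4 of 10. The 2 further keratins that fell were Krt6b, a near copy of Krt6a, at least 2.04-fold, and Krt16, the partner of Krt6a, by 0.75 (adjusted p = 0.048). The keratins of dry skin, Krt1 and Krt10, differed by 0.77 and 0.41 with adjusted p-values of 0.336 and 0.382. Krt15 (-0.98) and Krt17 (-0.77), basal and stress keratins, had adjusted p-values of 0.372 and 0.341. The list's median was -0.75.

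Among cornified envelope genes, 14 of 20 could be tested, with 3 lower and 2 higher without tumors and a median of 0.17. Sprr2d was at least 4.06-fold lower (adjusted p = 0.00936) and Sprr2f at least 1.58-fold lower (adjusted p = 0.0114), both with no array without tumors above background. Like Krt6b, they passed the filter only with the DMH arrays. Their means were low there too, at -4.37 for Krt6b, -3.38 for Sprr2d and -4.74 for Sprr2f. Sprr2h fell by 1.36 (adjusted p = 0.0266). Their relatives Sprr2b and Sprr2e differed by 0.76 and 0.55, with adjusted p-values of 0.0582 and 0.0701. Sprr2 genes lie close in sequence, and probes may share signal among them. Cnfn, an envelope protein, rose by 0.97 and Evpl, the envoplakin that tethers the envelope, by 0.61 (adjusted p = 0.0271 and 0.0166). Ivl, the classical envelope protein involucrin, was not well above background on any array, nor were Sprr3, Krtdap, Rptn and Calml3.

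Adhesion genes split as well, 2 lower and 2 higher of 10, with a median of 0.11. Lypd3, a lipid-anchored relative of Ly6d, fell by 2.54 ± 0.25 (adjusted p = 0.00127), and Col17a1, a hemidesmosome collagen of basal keratinocytes, by 2.34 ± 0.53 (adjusted p = 0.0144). Dsp and Perp, desmosomal proteins that simple epithelia make too, rose by 0.70 and 0.67 (adjusted p = 0.0159 and 0.0183). Dsg1a, the desmoglein of upper squamous layers, was not well above background on any array.

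Of 10 regulators and secreted proteins, 4 fell and 1 rose, with a median of -0.60. Lgals7, a galectin of stratified epithelium, fell by 2.01 ± 0.32 (adjusted p = 0.0047), with 2 of 3 arrays without tumors above background. Klf5 and Klf4, factors of proliferating and differentiating epithelium that the colon also makes, fell by 1.18 and 0.61 (adjusted p = 0.0154 and 0.0166), and Sfn, the 14-3-3 protein of epithelia, by 0.77 (adjusted p = 0.0173). Ovol1 rose by 0.97 (adjusted p = 0.046). Over the 4 further lists, Lypd3, Lgals7, Sprr2d and Sprr2f kept their calls in all 9 fits that left out 1 array, and every other gene called in this comparison lost it in at least 1.

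In the remaining comparisons fewer of these genes passed. Taking all butyrate arrays, Klf5 (-1.29), Klf4 (-0.70), Lgals7 (-1.65), Sfn (-0.69) and Lypd3 (-1.84) fell, and Cnfn rose by 1.17, with 9.2% of all features called either way. With tumors against DMH, where 5.7% were called, Klf5 fell by 1.39, Klf4 by 0.79 and Lypd3 by 1.14, and Cnfn rose by 1.38. Between the butyrate groups, where 13.5% were called, Sprr2h was higher with tumors by 2.15, Col17a1 by 1.99 and Lypd3 by 1.40. Perp fell by 0.88, Dsp by 0.69, Ovol1 by 1.27 and Fgfbp1, a carrier of fibroblast growth factors, by 1.58. Each of these calls was lost in at least 1 fit that left out an array.

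**Figure D4:**
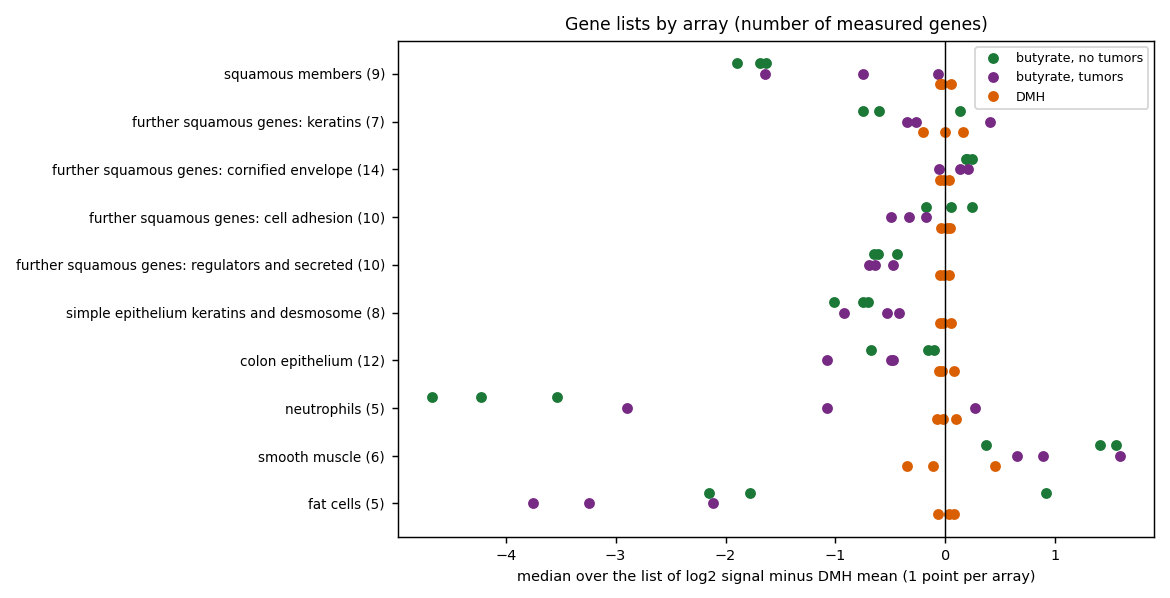
Median over each gene list of log2 signal minus the DMH mean (horizontal axis), 1 point per array, with the number of measured genes in brackets. The squamous members lie at -1.90 to -1.63 without tumors and at -1.64 to -0.07 with tumors, while the further cornified envelope and adhesion lists lie within 0.5 of 0 on every array. Neutrophil, smooth muscle and fat cell lists also differ between groups.

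Markers of other cells moved beside the members. Columnar colon epithelium was present throughout, all 12 of its markers being above background on all 9 arrays, with summed signal of 563 to 843 times the 75th percentile without tumors, 542 to 582 with tumors and 955 to 1080 in DMH mice. These sums are led by the brightest probes. Without tumors against DMH, Lgals4 and Epcam fell by 1.81 and 1.0, Aqp8 and Slc26a3 rose by 1.11 and 1.19, and the median of the 12 was -0.31. Keratins of simple epithelium were lower as well. Without tumors 6 of 8 genes of simple epithelium fell against DMH (Krt18 -1.24, Krt8 -0.98, Krt20 -0.81, Krt19 -0.61, Krt7 -0.83 and Krt23 -2.03 on the log2 scale), with a list median of -0.82. Over all features 13.8% were called lower. Krt18, Krt20 and Krt23 kept their calls in all 9 fits that left out 1 array, Krt8 in 8, and Krt19 and Krt7 in 4 each. The desmosomal genes of that list were not called, Dsg2 differing by -0.65 (adjusted p = 0.215) and Dsc2 by 0.41 (adjusted p = 0.173), and between the butyrate groups Dsc2 fell by 0.97 with tumors. The part of a general shift in epithelial keratins in the squamous differences was not tested.

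Neutrophil markers, too, were lowest without tumors. Their median difference from the DMH mean was -3.53, -4.67 and -4.23 on the arrays without tumors, -2.90, -1.08 and 0.27 on those with tumors, and within 0.10 of it on the DMH arrays. All 5 that were measured fell without tumors against DMH, where 13.8% of all features were called lower. S100a9 differed by -4.84, Mmp9 by -3.7 and Csf3r by -1.47, the last above background on 2 of 3 arrays without tumors. S100a8 was at least 15.1-fold and Ltf at least 9.74-fold lower, both above background on no array without tumors. Both passed the filter on dim probes through arrays of the other groups, so some difference was built into their being tested. Their summed signal was 0.126 to 0.327 without tumors, 0.569 to 5.79 with tumors and 3.65 to 3.95 in DMH mice. Ngp and Cxcr2 were not well above background on any array. S100a8 and S100a9 are also made by stressed keratinocytes. Smooth muscle markers went the other way, with summed signal of 380 to 830 without tumors, 431 to 868 with tumors and 219 to 376 in DMH mice. Without tumors 3 of 6 rose against DMH (Actg2, Cnn1 and Myh11), where 3656 of all 21964 features were called higher. Each of the 3 kept its call in only 2 of the 9 fits that left out 1 array. Skeletal muscle, as of an anal sphincter, was above background for 6 or 7 of 7 markers on every array, with summed signal of 2.99 to 4.46 without tumors, 4.21 to 5.29 with tumors and 2.91 to 3.34 in DMH mice. Its fast myosins were higher than in DMH mice, Myh1 by 1.39 and Myh2 by 1.68 without tumors and by 1.34 and 2.11 with tumors, while Mylpf fell by 0.74 without tumors. Against DMH, 4 of the 7 had fitted values below 0 without tumors. The list's median difference was -0.06 without tumors and 0.85 with tumors. Fat cell markers spread most without tumors, with summed signal of 11.2 to 74.3, against 4.70 to 11.7 with tumors and 32.5 to 35.8 in DMH mice. Every array with tumors thus lay below every DMH array. The median difference of the fat cell list from DMH was -1.0 without tumors and -3.03 with tumors. The part of any of these cells in the squamous differences was not tested.

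Markers of skin appendages gave no common direction. Of 11 hair follicle and sebaceous gland genes with a probe, 7 were measured, and without tumors against DMH Trps1 rose by 1.89. Awat2, a sebaceous wax enzyme, was called on a fitted difference of -1.64 (adjusted p = 0.0356). It was above background on 2 of 3 DMH arrays, on 1 array with tumors and on no array without tumors. As a DMH array was dim too, no fold is given, and Awat2 passed the filter only through the other groups. Krt79 and Elovl3 were not well above background on any array. Of melanocyte genes 3 of 5 with a probe were measured. In the same comparison Pmel differed by -0.10 (adjusted p = 0.858) and Dct by 0.07 (adjusted p = 0.843). Mitf, a factor that other cells make too, was at least 11.8-fold lower (adjusted p = 0.000239), with no butyrate array above background, so that it was tested through the DMH arrays alone. Ly6d, Krt5, Krt14, Krt13, Sprr1a and Sprr2a were above background on all 9 arrays, but Krt4, Krt6a and Dsg3 on no array without tumors. Trp63, Ivl, Sprr3 and Dsg1a were not well above background on any array. The arrays do not show whether the signal came from an anal margin.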

How the data were processed

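Total RNA of normal colonic mucosa was measured on 9 single-colour arrays. Per the file headers, Feature Extraction 10.5.1.1 made the deposited intensity values (gProcessedSignal) by subtracting background and detrending within each array, with no scaling between arrays. The authors' deposited table holds log2 values of 21829 probes, including 7 of the 13 member probes. Each column equals log2 gProcessedSignal less 1 constant per array (SD of the difference at most 0.0081), and what that constant is stays unknown. The scanner intensities were used, the deposited log2 table only as an alternative.

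Of 45018 spots per array, 1639 controls and outlier spots were left out. Values are log2 intensity minus the array's 75th percentile. Probes well above background on at least 3 of 9 arrays, with at least 2 values per group, were kept (28521). For each gene its brightest probe by mean over the arrays was tested, and unnamed probes stayed, giving 21964 features. RefSeq accessions named 26933 of 41174 probes. The DMH files use another annotation version, differing for 4725 probes, and 1 version served all arrays. "At least" folds set the dim group at each array's lowest well-above-background signal.

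limma 3.58.1 (lmFit, eBayes, 2-sided, R 4.3.3, statmod 1.5.0) gave differences, standard errors and p-values, with Benjamini-Hochberg adjustment across the features and calls under 0.05. All butyrate against DMH was fitted with 2 groups, the other comparisons in 1 fit of 3 groups. The fit was tested on simulated data. Files were read with pandas 2.3.3 and numpy 2.4.6 in Python 3.11.15, and plots drawn with matplotlib 3.10.9. The small number of arrays limits the precision.

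Alternatives were other scaling, normexp background correction (offset 50), the authors' values, other filters and probe rules, other groups in the fit, blocks for replicate number or slide, DMH arrays 2 and 3 averaged, slide 1 left out, and each array left out. The members and gene lists were chosen with earlier results of these data known. Named were all members, up to 6 called genes of the further squamous lists per comparison by smallest p, the 3 genes most like each member, and marker genes beside a result. Other list genes were named, after their values were seen, to account for counts.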

Additional observations from a re-analysis of the deposited data

Results flagged for a closer look

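The difference from DMH was unequal in the butyrate groups for 4 squamous genes, and the test of that difference is the one between the groups with and without tumors, since both are set against the same DMH arrays. On the log2 scale the difference from DMH was higher with tumors by 3.68 for Ly6d (adjusted p = 0.00917), by 1.85 for Krt6a (adjusted p = 0.0321), by 1.63 for Dsg3 (adjusted p = 0.0453) and by 0.76 for Sprr2a (adjusted p = 0.0273), each with all 3 arrays with tumors above all 3 without. For Ly6d the group with tumors reached the DMH level, whereas for Dsg3, Krt6a and the tested Sprr2a probe it lay between. The second Sprr2a probe did not show this. It differed by 0.27 between the butyrate groups (adjusted p = 0.334), which overlapped, and with tumors by 0.23 from DMH (adjusted p = 0.419). Over the 9 fits that left out 1 array, Ly6d kept its call in all 9, Sprr2a in 3, and Krt6a and Dsg3 in 1 each. With slide as a fixed block, which sets the single array 1 with tumors against its slide mates, Ly6d was called and the other 3 were not. Krt6a and Dsg3 were not well above background on array 1 with tumors or on any array without.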

How the results depend on the processing

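Butyrate without tumors against DMH gave 6 squamous genes, and each alternative gave a count within 1.5 times of that (4 to 7 with 1 array left out). The other counts moved. For all butyrate against DMH (3 genes) the count was 1 with the authors' values, with probes above background on at least 6 arrays, with the mean over the probes of a gene and without slide 1, and 0 with no scaling, no filter on dim probes, DMH arrays 2 and 3 averaged, slide as a random block or the replicate block, with 3 to 7 genes at an unadjusted limma p under 0.05 in those settings. Leaving out 1 array gave 0 to 6. For butyrate with tumors against DMH (2 genes) it was 1 with the authors' values, at least 6 arrays, every probe as a feature or without slide 1, and 0 with quantile or no scaling, no filter, the mean over probes, only the groups compared, DMH arrays averaged, slide as a random block or the replicate block, with 2 or 3 genes at an unadjusted limma p under 0.05. Leaving out 1 array gave 0 to 1. Between the butyrate groups (4 genes) it was 2 with at least 6 arrays, 1 with quantile scaling, no scaling, normexp, the authors' values, no filter, DMH arrays averaged and slide as a random or fixed block, and 0 with only the groups compared, with 4 genes at an unadjusted limma p under 0.05. Leaving out 1 array gave 1 to 6. Beyond fewer genes or arrays tested, the cause of these changes was not tested.

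Same-numbered samples of different groups correlated at -0.01 to 0.264 in their deviations, other pairs at -0.241 to 0.226. The highest value, 0.264, was between array 1 without tumors and DMH array 1. As the ranges overlap and deviations within a group of 3 are tied to each other, they cannot settle whether the numbers pair the samples. With the replicate block 6 genes were called without tumors against DMH, with Krt4 (adjusted p = 0.0449) in place of Krt14 (adjusted p = 0.0686), and 4 for tumors against no tumors, and array 3 without tumors correlated best with a sample of another number.

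Values that changed sign were never called. Without slide 1, all butyrate against DMH gave 0.10 for Ly6d and 0.30 for Krt5. Sprr1a without tumors against DMH turned to 0.24 without array 2 without tumors and 0.03 without array 3 without tumors, and ran from -0.70 to 0.24 with 1 array left out. With tumors against DMH, Ly6d was -0.10 with no scaling, and Krt5 was -0.05 with quantile scaling, -0.54 with no scaling, -0.08 with normexp, -0.10 with the authors' values, -0.02 with slide as a random block, -0.13 without array 2 with tumors and -0.16 without DMH array 3. Between the butyrate groups, slide as a fixed block gave -0.24 for Krt14, -0.25 for Krt13 and -0.03 for Krt4, and Sprr1a was 0.04 with no scaling and 0.12 without array 1 without tumors, with a range of -0.82 to 0.12.

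Of the single-gene values under alternatives, 142 lost a call, 11 gained one and 17 changed sign, and all others kept direction and side of the threshold. Signal near background limits Krt4, Krt6a, Dsg3 and Trp63, and fitted sizes that rest on their dim arrays are uncertain.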
